A study of Homo sapiens with 6 samples.

Results

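The zinc finger genes ZNF718, ZNF876P, ZNF732 and ZNF141 are neighbours at the telomeric end of the short arm of chromosome 4. They were taken by symbol from the genes that differed between the K562 leukaemia line and both of its imatinib-resistant derivatives. All 4 were among the 674 genes of the authors' deposited table, which gives each gene 1 log2 fold change per comparison. The members were chosen from these same folds, so the folds are a description and carry no test.

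K562 is an established line from chronic myeloid leukaemia that carries the BCR-ABL1 fusion kinase, and imatinib inhibits the ABL kinase. The labels describe 6 RNA sequencing libraries, 2 for each group. WT is the imatinib-sensitive parent, grown in RPMI1640 with serum and antibiotics. IR1 and IR2 are the resistant lines, grown in the same medium with imatinib always present, so resistance and drug exposure cannot be told apart. The sources used here give neither the concentration of the drug nor whether each resistant line is a single clone. The other library of each group is labelled as a repeat, and nothing says that it came from a separate culture.

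The columns carry no line name in the header, so they are called the first and the second column. The numerator is not named there either, so a positive value may mean a higher level in the resistant lines or in WT. Values per library, errors and p-values were not used here, so no fold can be set against the spread between libraries, and the depth behind it is unknown. The smallest absolute log2 fold change in the table was 1.5 in each column. In bulk RNA a change of level in every cell and a change in the share of cells that express a gene cannot be told apart. Levels of K562 markers could not be checked from folds. Of 11 genes fixed as K562 markers 3 were in the table, all negative, among them the globin genes HBE1 and HBA2. Of 7 marker genes of other cell types COL1A1 and ACTA2 were in it, both positive. Over the whole annotation 657 of 58735 genes were in the table, and 74.3% of all listed genes were positive. With so few markers and no named numerator, nothing about the identity of the cells is read from these signs.

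KRAB zinc finger proteins form one of the largest families of transcription factors in mammals. An array of C2H2 fingers, each folded around a zinc ion, binds DNA. The KRAB domain near the amino end recruits the corepressor TRIM28, which brings in the histone methyltransferase SETDB1 and silences chromatin, above all at transposable elements. The genes arose by tandem duplication and lie in clusters, most of them on chromosome 19, and the cluster at the end of chromosome 4p is a smaller one.

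ZNF732 (ENSG00000186777), a protein-coding KRAB zinc finger gene on the minus strand, had the largest folds of the 4. In the first column of the authors' deposited table its log2 fold change was 3.90, and in the second it was 5.0. These values correspond to 14.9-fold and 32-fold differences in the authors' deposited table. ZNF732 stood at rank 42 of the 501 positive genes in the first column and at rank 37 in the second.

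ZNF876P (ENSG00000198155) is a transcribed pseudogene of the same family, annotated as an unprocessed copy, which means that it arose by duplication of a gene and not from a spliced RNA. The authors' deposited table gave it 2.88 and 4.31 on the log2 scale, which are 7.38-fold and 19.9-fold differences. ZNF141 (ENSG00000131127), a protein-coding KRAB zinc finger gene first studied in work on the 4p deletion syndrome, was listed with 2.78 and 4.21 in the authors' deposited table, or 6.88-fold and 18.6-fold. ZNF876P and ZNF141 therefore lay close together in both columns, below ZNF732.

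ZNF718 (ENSG00000250312), a protein-coding KRAB zinc finger gene and the member nearest to the telomere, had the smallest folds. The authors' deposited table listed it at log2 values of 1.53 and 1.99, a 2.89-fold and a 3.97-fold difference. Only 18 of the 674 genes had a smaller absolute value in the first column, so ZNF718 sits just inside the range of values that the table holds. In the second column 110 genes had a smaller absolute value.

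**Figure D1:**
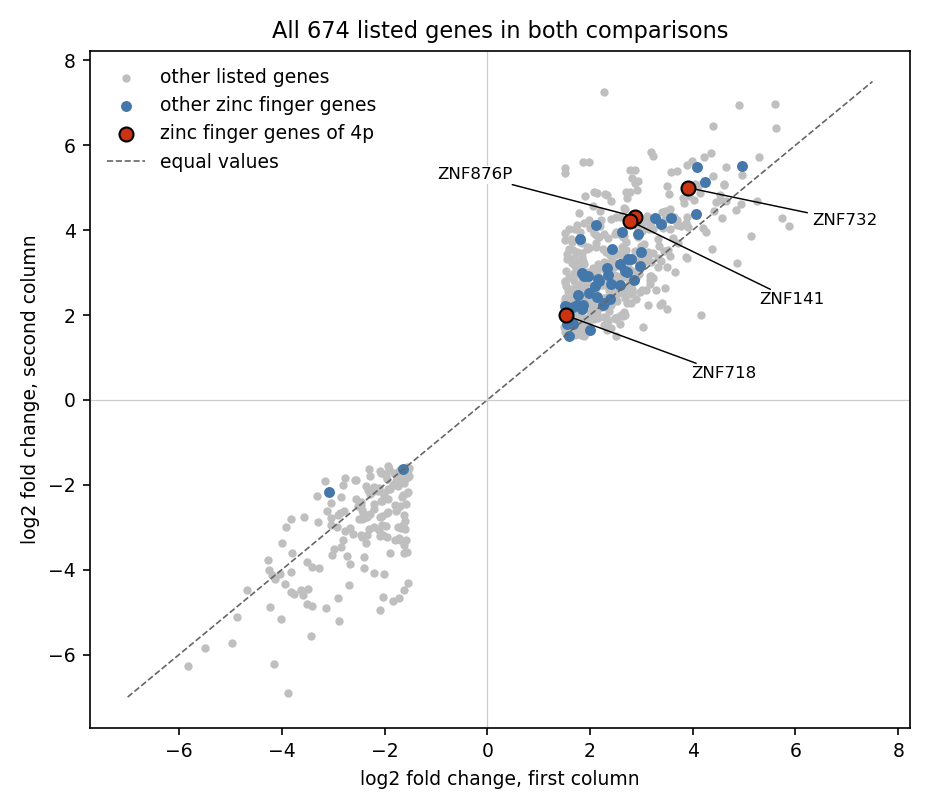
Each point is a gene of the authors' deposited table, with its log2 fold change in the first column on the x axis and in the second column on the y axis; the dashed line marks equal values. ZNF732, ZNF876P and ZNF141 lie in the upper right above the line (2.78 to 3.90 against 4.21 to 5.0), and ZNF718 lies at the lower edge of the positive genes (1.53 and 1.99).

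The order ZNF732, ZNF876P, ZNF141, ZNF718 was the same in both columns of the authors' deposited table. Without an error per gene it cannot be said whether ZNF876P and ZNF141, which differ by 0.14 as a distance over both log2 values, are distinct. All 4 members were positive in both columns, against 74.3% of all genes in the table. Every listed gene was either positive in both columns (501) or negative in both (173), so a like sign in both is no trait of the members. A fold of 16 or more with a positive sign was reached by 0 of the 4 in the first column, where 5.49% of the listed genes reached it, and by 3 of the 4 in the second, where 16.8% did. The members were chosen from these folds, so the counts are set beside the background and nothing is read from them. Over the 4 members the medians of the authors' deposited table were 2.83 for the first column and 4.26 for the second. For all 501 positive genes of the authors' deposited table the medians were 2.28 and 2.92.

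The second column was the larger for each of the 4 members. The difference of the second from the first log2 fold change in the authors' deposited table was 1.43 for ZNF141, 1.43 for ZNF876P, 1.10 for ZNF732 and 0.46 for ZNF718. Expressed as ratios of the folds of the authors' deposited table, these are 2.70, 2.69, 2.14 and 1.37. A gap of more than 1 log2 unit in favour of the second column was thus held by 3 of the 4 members, against 24.9% of all listed genes. The median gap over the 4 members of the authors' deposited table was 1.26, and over the 501 positive genes it was 0.53. ZNF718 was near that median, with 46.1% of the positive genes below it, while 83.4% lay below ZNF141, 83.2% below ZNF876P and 76.8% below ZNF732. Both columns rest on the same WT libraries. The difference between the resistant lines was not tested for any gene, since the table of folds used here holds no values per library.

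**Figure D2:**
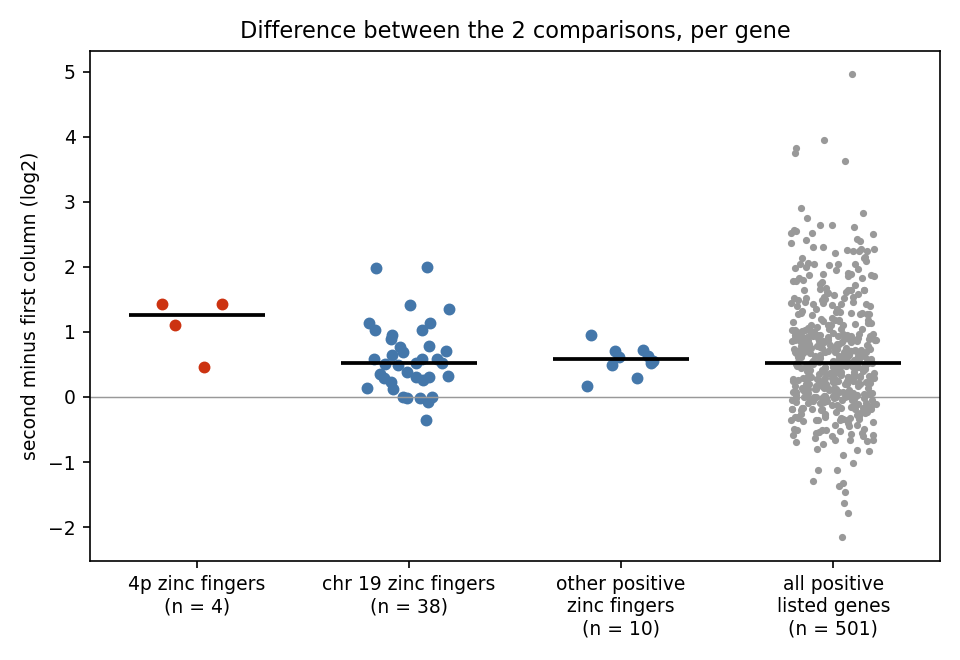
Each point is a gene of the authors' deposited table and the y axis is its second minus its first log2 fold change; black lines are medians and points are spread sideways for legibility. The medians are 1.26 for the 4 zinc finger genes of 4p, 0.53 for the 38 on chromosome 19, 0.58 for the other 10 positive zinc finger genes and 0.53 for all 501 positive genes.

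Along the chromosome, the members were accompanied by 2 further listed genes. GENCODE annotates 12 genes from the 4p telomere up to and including ZNF141, and 6 of them were in the table, all positive. The 4 members are among the 6 by choice and ZNF141 sets the end of the stretch, so nothing is read from 6 of 12. Of the 8 other genes 2 were listed. Over the whole annotation 0.831% of genes were listed with a positive value, given as background without a test. In order from the telomere the 6 are BNIP3P41, ZNF718, ZNF876P, AC079140.3, ZNF732 and ZNF141. The 6 others on this stretch, among them the KRAB zinc finger gene ZNF595, were not in the table. Absence from the table can mean that a gene was not called in both comparisons or was not tested. A gene may also be listed under an identifier that GENCODE 29 lacks, since that annotation held 657 of the 674 listed identifiers. These reasons cannot be told apart, for ZNF595 or for any other gene described as not listed.

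BNIP3P41 (ENSG00000248302) is a transcribed processed pseudogene of BNIP3, a mitochondrial protein of hypoxia and mitophagy, and is the annotated gene closest to the telomere. The authors' deposited table gave it 3.82 and 4.76 on the log2 scale, above those of the zinc finger members other than ZNF732. BNIP3 itself, on chromosome 10, had the opposite sign in the authors' deposited table, with -1.70 and -1.65. None of the 980 distinct 50-base words of the annotated BNIP3P41 transcripts occurred in a transcript of another gene, BNIP3 included. Only exact matches to annotated transcripts were searched, and reads shared through inexact matches were not tested.

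AC079140.3 (ENSG00000251188), named after its values were seen, is annotated as a processed pseudogene between ZNF876P and ZNF732, on the strand of ZNF732. The authors' deposited table gave it 2.72 and 4.76 on the log2 scale, a gap of 2.04 between columns. Of its 501 distinct 50-base words 11 recur in another annotated gene, and that gene was ZNF721. In the first column of the authors' deposited table the 6 listed genes of this stretch ranged from 1.53 to 3.90, and in the second from 1.99 to 5.0, with ZNF718 the lowest and ZNF732 the highest in each.

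**Figure D3:**
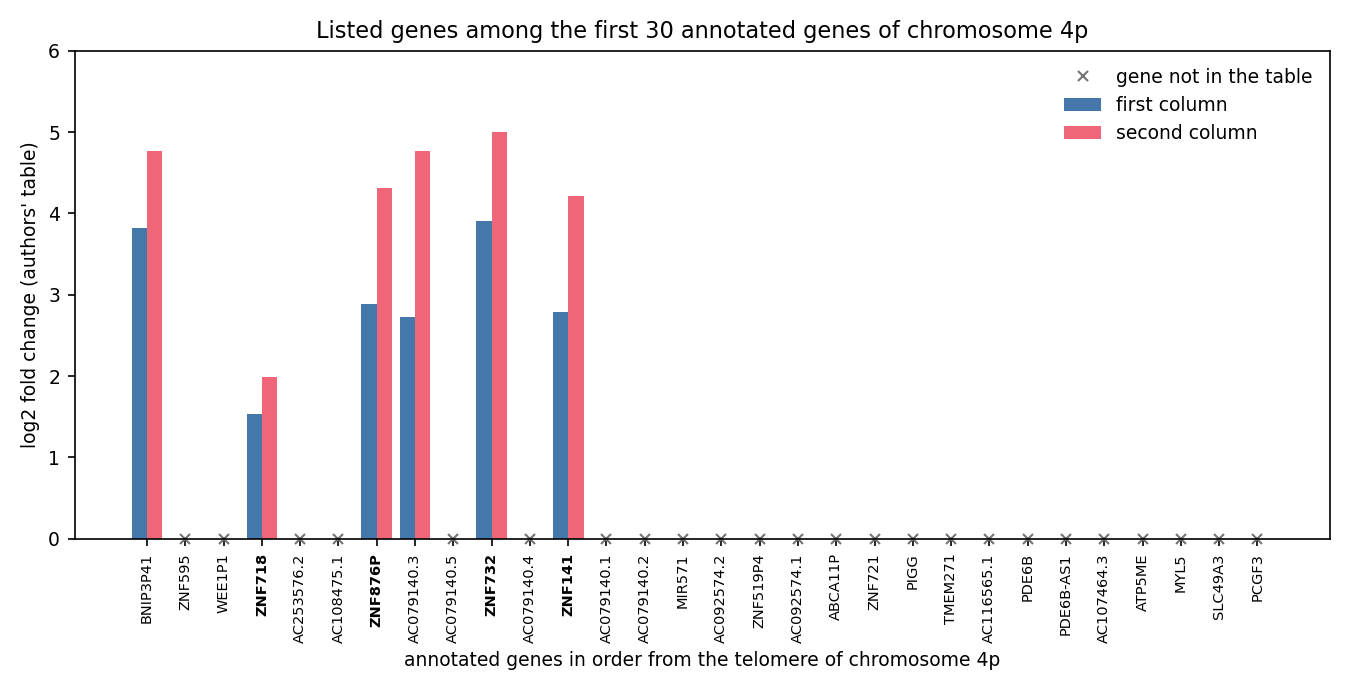
Bars give log2 fold changes from the authors' deposited table (y axis) for the first 30 annotated genes of 4p in order from the telomere (x axis, not to distance); crosses mark genes that are not in the table and bold names the 4 zinc finger genes. The 6 listed genes all lie at or before ZNF141, the gene at order 12, and none of the other 18 shown after it is listed.

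ZNF141 was the last listed gene of the stretch, and it sets the end of the stretch by choice. The next 142 annotated genes toward the centromere, 60 of them protein-coding, held 0 genes of the table when matched by GENCODE 29 identifier. Over the whole rest of the short arm, these genes included, 1.59% were listed. At so low a share a gap of this length is not read as a boundary. Among the 142 genes are the zinc finger gene ZNF721 and the pseudogene ABCA11P that overlaps it. PIGG, a gene of glycosylphosphatidylinositol anchor synthesis, and PDE6B, a subunit of the rod photoreceptor phosphodiesterase, are there too. Of 20 neighbouring genes fixed as a list, the 4 members were in the table and the other 16 were not. The other zinc finger genes of the cluster, ZNF595 and ZNF721, are among those 16, and the processed fragment ZNF519P4 was not listed either. That list was chosen with earlier results known and leaves out BNIP3P41 and AC079140.3, which were in the table. Nothing is therefore read from its counts. Over all annotated zinc finger genes 7.63% were listed with a positive value.

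The next listed gene was EVC2, a ciliary regulator of Hedgehog signalling, at 1.82 and 2.37 in the authors' deposited table. It is followed by its partner EVC, at 2.37 and 2.99 in the authors' deposited table. On the rest of the short arm 11 of 694 annotated genes (1.59%) were listed, of which 6 were positive and 5 negative. The negative ones included the carboxypeptidase gene CPZ (-4.88 and -5.11), the axon guidance gene SLIT2 (-1.78 and -1.90) and the GABA receptor gene GABRA2 (-2.10 and -3.07), all on the log2 scale of the authors' deposited table. Chromosome 4 as a whole had 51 listed genes, of which 38 (74.5%) were positive, close to the share in the whole table. Without the 4 members 34 of 47 (72.3%) were positive. Another zinc finger gene, ZFP42, lies near the opposite end of this chromosome, with 4.95 and 5.50 in the authors' deposited table.

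**Figure D4:**
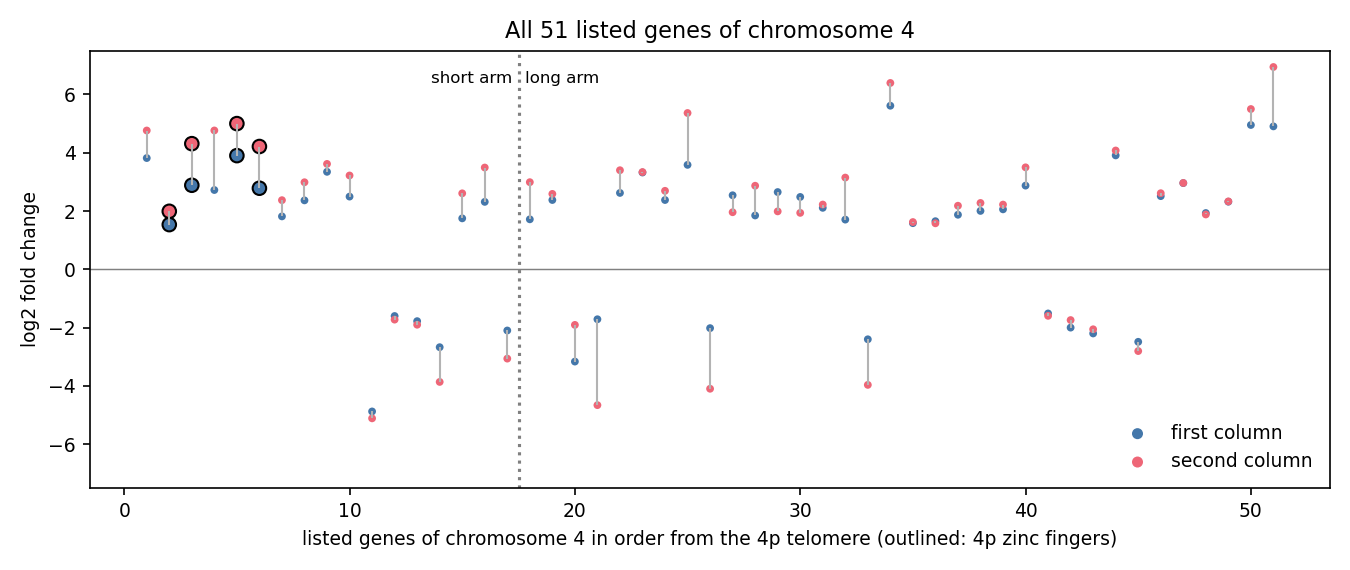
The 51 listed genes of chromosome 4 are set in order from the 4p telomere (x axis, not to distance) with both log2 values from the authors' deposited table (y axis), joined by a grey line; outlined points are the 4 zinc finger genes. The 17 genes of the short arm begin with 6 positive genes up to ZNF141, and the first negative gene is CPZ.

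The start sites of the cluster were compared where RefSeq sequence was at hand, which was the case for 2 of the 4 members, ZNF718 and ZNF141, and for the unlisted ZNF595. They are shown because ZNF141 and ZNF595 have related start regions. ZNF595 was not found in the table, so it has no fold to set beside that of ZNF141. Each window runs from 250 bases before to 50 bases after a RefSeq start, which for ZNF718 lies inside the annotated gene. The windows are on the plus strand of the build GRCh38.p14, which is not the hg19 of the submitters' processing notes. The windows are chr4:337564-337863 for ZNF141, chr4:53071-53370 for ZNF595 and chr4:127871-128170 for ZNF718. Capitals mark CpG dinucleotides, the sites of DNA methylation.
ZNF141: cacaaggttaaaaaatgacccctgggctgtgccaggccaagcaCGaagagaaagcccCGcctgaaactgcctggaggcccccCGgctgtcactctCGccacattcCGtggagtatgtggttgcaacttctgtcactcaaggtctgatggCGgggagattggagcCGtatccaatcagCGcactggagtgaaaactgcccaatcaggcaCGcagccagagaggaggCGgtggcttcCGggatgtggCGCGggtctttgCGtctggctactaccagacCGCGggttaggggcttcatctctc
ZNF595: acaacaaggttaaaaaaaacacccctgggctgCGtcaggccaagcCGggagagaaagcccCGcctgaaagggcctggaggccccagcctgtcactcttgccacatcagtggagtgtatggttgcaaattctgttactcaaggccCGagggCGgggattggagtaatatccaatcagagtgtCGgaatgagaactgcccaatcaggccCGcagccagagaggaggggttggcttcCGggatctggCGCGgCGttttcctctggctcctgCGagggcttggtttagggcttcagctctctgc
ZNF718: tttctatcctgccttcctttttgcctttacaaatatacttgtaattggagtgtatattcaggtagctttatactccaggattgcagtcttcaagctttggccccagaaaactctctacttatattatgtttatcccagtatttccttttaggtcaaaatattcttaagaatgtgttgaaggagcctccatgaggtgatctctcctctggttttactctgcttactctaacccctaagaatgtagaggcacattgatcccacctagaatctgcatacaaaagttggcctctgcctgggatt

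ZNF141 and ZNF595 shared 250 of 293 aligned bases (85.3%), with 7 bases of each window left unaligned. Identity with ZNF718 was 69.1% for ZNF141 and 69.4% for ZNF595, over 243 and 232 aligned bases. In these alignments 57 and 68 bases of each window were left unaligned, and unaligned bases do not enter the identity. The values with ZNF718 are therefore not read as a degree of relatedness. ZNF141 had 16 CpG dinucleotides in its window and ZNF595 had 12, against a median of 14 over 27305 RefSeq windows and of 21 over the 47 windows of listed zinc finger genes. ZNF718 had 0, and its window lies inside the body of the gene as RefSeq annotates it, and which start these cells use was not measured. The CCAAT box, spelled CCAAT and searched on both strands, was found 3 times in ZNF141, 3 times in ZNF595 and 1 time in ZNF718. At least 1 match was present in 35.7% of all windows and in 47.3% of those of zinc finger genes, and 3 or more in 3.42% and 4.32%. A match is a description of the letters and shows no bound factor.

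The proteins were compared by translating the longest complete annotated coding sequence of each gene. ZNF718 had 478 residues with 11 C2H2 finger patterns, ZNF732 had 585 residues with 9, and ZNF141 had 474 residues with 10. A KRAB pattern was matched in each of the 3, as in 62.7% of the 51 listed zinc finger genes with a translation and 38.3% of the 567 annotated ones. The unlisted neighbour ZNF595 had 17 fingers and a KRAB match, and ZNF721 had 23 fingers and no match. All 3 members had fewer fingers than the median of 13 over the listed zinc finger genes off 4p. Over the 567 annotated zinc finger genes the median was 10, with ZNF718 above it, ZNF141 equal to it and ZNF732 below it.

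ZNF732 and ZNF141 were the most alike, with 78.5% identical residues over 469 aligned positions. ZNF718 had 70.1% identity with ZNF732 and 69.3% with ZNF141. Among the 50 other listed zinc finger proteins compared with each member, the first and second in identity to ZNF718, ZNF732 and ZNF141 were in each case the other members. The next were ZNF724 of chromosome 19 for ZNF718 (67.4%) and ZNF141 (66.9%), and ZNF208 of chromosome 19 for ZNF732 (66.6%). Likeness to the unlisted neighbours was of the same order. ZNF595 shared 74.2% with ZNF718 and 74.4% with ZNF141, more than ZNF718 shares with either listed member. ZNF721 shared 73.4% with ZNF141. These values cover 477, 473 and 410 aligned positions, while ZNF595 has 648 residues and ZNF721 has 923. Residues left unaligned do not enter the identity.

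Because related genes can exchange reads in counting, the transcripts were searched for words that also occur in other annotated genes. In ZNF732, 4.62% of the 50-base words were found in another gene, most often in the unlisted ZNF721, and 33 words were shared with ZNF141. The share was 3.06% for ZNF141 and 2.40% for ZNF876P. With 100-base words it was 0.287% for ZNF732 and 0% for ZNF141 and ZNF876P. ZNF718 stood apart with 10.2% and 7.07%, and its largest overlap was with AC108475.1, a pseudogene annotated against the end of ZNF718 on the opposite strand. Read length, strand setting and the handling of reads that match several genes are not stated in the sources at hand. Words shared with AC108475.1 made up 6.28% of the 50-base and 5.26% of the 100-base words of ZNF718, and reads from that portion could belong to either gene. Words found in no other annotated gene made up 89.8% and 92.9%. The part of shared reads in the folds was not tested.

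**Figure D5:**
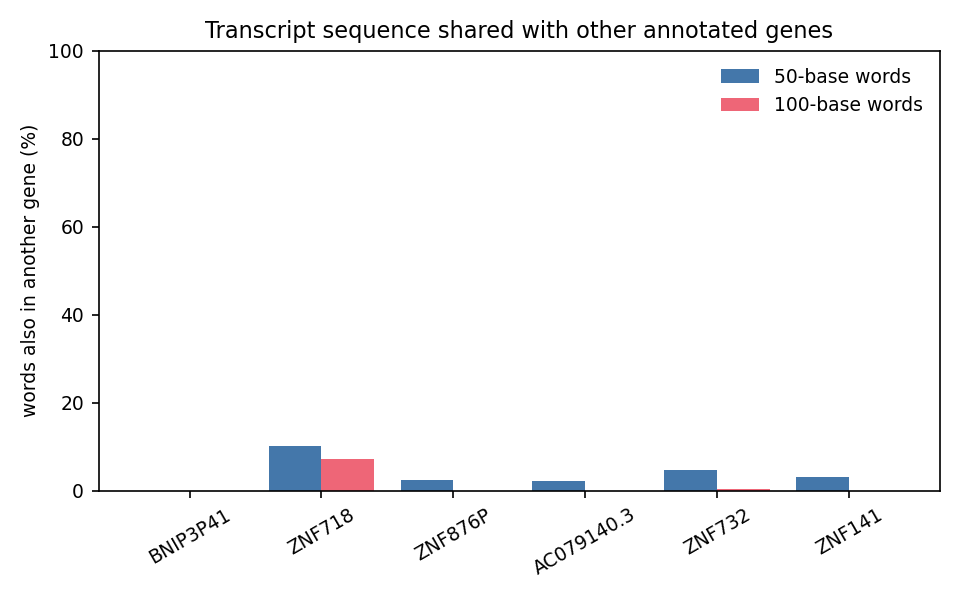
Bars give the share of distinct transcript words (y axis, percent of 50-base or 100-base words) that also occur in another annotated gene, for the 6 listed genes of the stretch in order from the telomere (x axis). All are at 10.2% or below, with ZNF718 the highest and BNIP3P41 at 0.

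Beside the other zinc finger genes of the table the members were not alike. Among the 54 listed zinc finger genes ZNF732 ranked 4 in the second column, ZNF876P 6, ZNF141 9 and ZNF718 47. The 38 zinc finger genes of chromosome 19 had medians of 2.21 and 2.84 on the log2 scale of the authors' deposited table, with a range from 1.51 to 5.49 in the second column. Highest by mean of both columns on chromosome 19 were ZSCAN1 (4.08 and 5.49), ZNF875 (4.25 and 5.14) and ZSCAN18 (4.07 and 4.38), and lowest were ZNF550 (1.58 and 1.51), ZNF417 (1.56 and 1.8) and ZNF551 (1.59 and 1.85), in the authors' deposited table. The 11 zinc finger genes off chromosomes 4 and 19 had medians of 2.17 and 2.80 in the authors' deposited table, and 9 of them were positive. These were ZSCAN20, ZNF662, ZNF300, ZNF354C, ZNF883, ZNF214, ZNF605, ZFP90 and ZNF334, while ZNF608 and ZFPM2 were negative. A median of 4 members against 38 genes was not tested, since the members were chosen by their folds.

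The genes nearest to each member in both values were found by the Euclidean distance over the 2 log2 fold changes, which is a likeness over 2 comparisons with shared WT libraries. The nearest to ZNF876P was ZNF141, and the reverse, at a distance of 0.14 in the authors' deposited table. The next were SYCP2 and FZD3 for ZNF876P, and LINC02714 and ACTL8 for ZNF141, at distances from 0.22 to 0.23. ZNF732 was nearest to ZNF667-AS1, an antisense RNA of chromosome 19, at 0.030, followed by GBP5 and TRBC2. ZNF718 lay nearest to PCSK1N, THSD7A and the chromosome 19 zinc finger gene ZFP28, at distances of 0.012 to 0.052, in the dense lower range of the table.

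The partners through which KRAB zinc finger proteins act were fixed as a list of 23 gene symbols. The list holds TRIM28, SETDB1, the HP1 genes CBX1, CBX3 and CBX5, the HUSH complex and DNMT1. FAM208A and TASOR in it are the old and the new symbol of the same gene. None of the 23 symbols was in the authors' deposited table, so no value can be given for them. Smaller differences would not appear in that table. Over the whole annotation 657 of 58735 genes were in it, so nothing is read from the absence of so short a list.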

How the data were processed

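RNA sequencing libraries of WT, IR1 and IR2 K562 cells were compared by the authors. The submitters' processing notes name HISAT2 2.1.0, Subread with featureCounts, DESeq2 3.5 and the build hg19, with no role or setting. The deposited values are log2 fold changes per gene, which the authors kept for genes common to both comparisons. No source used here gives the selection limits, the strand setting or the depth.

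Symbols came from a gene name table, which matched 654 of 674 identifiers, and gene type and order from GENCODE 29 on GRCh38, which held 657. That build differs from hg19. The same annotation also gave the background counts of genes, the transcripts of the word search and the translated proteins. These may therefore differ from the gene models that the authors counted on. Zinc finger genes were taken by the symbol starts ZNF, ZFP, ZSCAN and ZKSCAN, without antisense and intronic RNAs. Fingers were counted as 2 cysteines separated by 2 residues and 2 histidines separated by 3, with 12 residues between the pairs. KRAB matches used a short pattern of the A box. Proteins were translated from GENCODE transcripts, since no protein table was used here, in place of the planned RefSeq proteins, and relatives needed 200 aligned residues. Identity was computed with Biopython 1.88 over aligned positions. Of the word search, the share of common words was tested on a simulated pair of sequences. The search of the reverse strand and the assignment to genes were not tested in this way.

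The genes named are the 4 members, listed genes of the short arm and of fixed lists, the 3 nearest genes to each member, the zinc finger genes off chromosomes 4 and 19, and the 3 highest, 3 lowest and most identical on chromosome 19. Some listed genes under this rule are given by count only. The members and lists were chosen with earlier results of these data known. No p-value was computed.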

Additional observations from a re-analysis of the deposited data

How the results depend on the processing

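No paired analysis was possible because the table holds no values per library, and for the same reason no library could be left out. The median log2 fold changes of the members, from the authors' deposited table, were set against 6 alternatives. All kept within the SD over members (0.97 in the first column, 1.31 in the second). Leaving out a member only moves the median to a neighbouring middle value. A mean cannot lie further than the SD from the median. This outcome was therefore fixed in advance and does not show that the values are stable. Protein-coding members alone and members without ZNF876P are the same set. The medians were 2.78 and 4.21 without ZNF876P, and the means over all members were 2.78 and 3.88. The median gap was 1.10 without ZNF876P. The percentile of a member moved outside its exact 95% binomial interval in 8 of 16 alternatives. The interval takes the 674 listed genes as independent draws, and the alternatives are subsets of the same genes. A move is therefore a description and no test. The widest move was for ZNF718, above 36.9% of all listed genes but above 13.0% of the zinc finger genes in the second column. These percentiles are signed, so the 173 negative genes count as below it. By absolute value 110 of the 674 genes were smaller, and among the 501 positive genes it ranked 425. With 3 or more fingers in the protein as the criterion, 50 of 51 listed genes were positive, against 52 of 54 by symbol. With absolute log2 fold changes of 2 or more in both columns, 33 of 34 were positive, and ZNF718 dropped out. A looser finger spacing changed no finger count of the members.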
